A study of Mus musculus with 51 samples.

Results

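Gene expression in 2 mouse stromal lines of the embryonic aorta-gonad-mesonephros (AGM), AM14-1C4 and AM30-3F4, was compared with that in the fetal liver (FL) stromal line 2012. The comparison rested on 9 of the 51 arrays of the series, 3 for each line, and all 9 lay in 1 normalization set. Genes were kept as shared where both AM lines differed from 2012 in the same direction, and were held apart from genes of a single AM line. The AM lines came from (CBAxC57BL/10)F1 embryos at embryonic day 11, and 2012 came from a C57BL/6 embryo liver at embryonic day 14.5. The labels give all 3 lines as supportive of hematopoietic stem and progenitor cells, so support itself was not compared here. All were grown at 33 °C on 0.1% gelatin, and RNA was taken at confluence, with 100 ng labelled per array. Each line is a clone, FL is represented by 1 line, and tissue, embryonic day and strain change together, so these cannot be told apart. Whether the 3 arrays of a line stand for separate cultures is not said in the labels; the p-values therefore reflect array-to-array spread that could be purely technical.

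As background, the AGM is the region of the embryo in which the first transplantable hematopoietic stem cells arise, on the ventral side of the dorsal aorta. The fetal liver is where these cells settle next and multiply. Stromal cells of both sites are mesenchymal: they lay down matrix and secrete the growth factors, Wnt regulators and chemokines that hold or expand stem cells, and lines cloned from them can keep stem and progenitor cells alive in culture.

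Values are log2 signals, so a difference of 1 is a 2-fold change, and levels are compared only between lines for the same probe set. Array medians over the 15 arrays of the set lay between 7.03 and 7.14, and arrays of 1 line correlated at 0.9958 or above in AM14-1C4, at 0.9971 or above in AM30-3F4 and at 0.9869 or above in 2012. The first 2012 array stood apart among the 162 genes at least 2-fold lower in both AM lines. It was the lowest of the 3 2012 arrays for 121 of them. Among the 189 genes at least 2-fold higher in both AM lines, 2012 arrays 1, 2 and 3 were the highest of their line for 74, 40 and 75. The third AM14-1C4 array stood apart too: among 103 genes at least 4-fold higher in AM30-3F4 than in AM14-1C4, it was the highest of the 3 AM14-1C4 arrays for 85. All 10 measured stromal markers lay above the median gene (7.38) in AM14-1C4, 8 of 10 in AM30-3F4 and 7 of 10 in 2012. Ptprc, the pan-leukocyte antigen CD45, averaged 5.51 in AM14-1C4, 5.58 in AM30-3F4 and 5.47 in 2012, below the first quartile of genes (5.99). Of 8 measured hematopoietic markers, 5 lay below that quartile in each line. Runx1 of the same markers lay above the median gene, at 10.45 in AM14-1C4, 11.06 in AM30-3F4 and 10.63 in 2012. The endothelial marker Pecam1 (6.23, 6.23 and 6.25 in the same order of lines) and the hepatocyte product Alb (5.25, 5.33 and 5.41) were low in all 3 lines.

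AM14-1C4 differed from 2012 in 6514 of 19938 genes at an adjusted p under 0.05 (limma, Benjamini-Hochberg), with 3343 higher (16.8% of genes) and 3171 lower (15.9%). AM30-3F4 differed from 2012 in 5977 genes, with 3100 higher (15.5%) and 2877 lower (14.4%). Of these, 1535 genes were higher in both AM lines (7.7% of all genes tested) and 1506 were lower in both (7.55%). At least 2-fold differences in both AM lines held for 189 of the higher and 162 of the lower genes. Both comparisons use the same 3 arrays of 2012, so an error in those arrays would move them together. Without the first 2012 array 1308 genes were higher and 1483 lower in both AM lines, and without the third AM14-1C4 array 1424 were higher and 1372 lower.

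The AM lines also differed from each other in 6308 genes, against 6514 and 5977 genes for AM14-1C4 and AM30-3F4 against 2012. A further 684 genes (3.43%) passed the threshold in both AM lines in opposite directions, 295 of them higher in AM14-1C4 than in 2012 and 389 higher in AM30-3F4 than in 2012. Genes of a single AM line had to pass against 2012 in that line, not pass in the other, and differ between the AM lines themselves. There were 1187 such genes higher in AM14-1C4 alone (5.95%) and 952 lower in AM14-1C4 alone (4.77%). In AM30-3F4 alone 946 were higher (4.74%) and 738 were lower (3.7%). For another 1218 genes that passed in 1 AM line, the difference between the AM lines was not shown. In a principal component analysis of the 9 arrays the first component (52.3% of the variance) set AM14-1C4 apart from the other lines, and the second (39.3%) separated AM30-3F4 from 2012.

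The 14 genes with the largest shared rise held surface, matrix and metabolic genes. They were picked by the size of the smaller of the 2 differences, so their sizes are a description. Has2, the synthase of the matrix polysaccharide hyaluronan, read 12.06, 12.14 and 12.15 in AM14-1C4, 12.01, 12.02 and 11.99 in AM30-3F4, and 7.92, 7.78 and 8.17 in 2012. All 6 AM arrays lay far above every 2012 array, and the differences were 4.16 ± 0.306 in AM14-1C4 and 4.06 ± 0.306 in AM30-3F4 (SE, adjusted p 3.53e-13 and 1.02e-12). Glipr1, a secreted-protein family member first found in glioma, read 11.91, 11.8 and 11.79 in AM14-1C4, 12.52, 12.48 and 12.49 in AM30-3F4, and 6.42, 6.04 and 6.15 in 2012. That is a difference of 5.63 and 6.29, or 49.6-fold and 78.5-fold. The membrane protein gene Tmem47 differed by 4.72 and 5.12 in the same order.

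Foxf1 led the transcription factors among these 14 genes. It is a forkhead factor of splanchnic mesoderm, the layer that gives rise to gut and vessel wall mesenchyme. It read 11.31, 11.28 and 11.29 in AM14-1C4, 11.63, 11.69 and 11.65 in AM30-3F4, and 7.73, 7.8 and 7.71 in 2012. The differences were 3.54 ± 0.09 and 3.91 ± 0.09 (adjusted p 1.84e-25 and 1.95e-26). Among the other lines of the set, the non-supportive FL line AFT011 averaged 11.18 and the supportive adult bone marrow line 14F1-1 (BALB/c, grown at 37 °C) averaged 6.03. The level of Foxf1 was thus high in both AM lines and in 1 of the FL lines, and low in 2012 and 14F1-1.

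Metabolic enzymes among the top shared genes were Ak4, a mitochondrial adenylate kinase (3.07 in AM14-1C4 and 3.98 in AM30-3F4), Lpl, the lipase that releases fatty acids from lipoproteins (2.98 and 3.04), Gpx3, the secreted glutathione peroxidase (4.06 and 2.64), and Renbp, the renin-binding protein, an epimerase of amino sugars (3.18 and 2.96). Ak4 has several probe sets. With the lowest of them its difference was 0.369 in AM14-1C4 (adjusted p 0.0874) and 0.593 in AM30-3F4 (adjusted p 0.00457). Lpl read 9.58, 9.66 and 9.8 in AM14-1C4, 9.8, 9.78 and 9.66 in AM30-3F4, and 6.97, 6.32 and 6.82 in 2012, and it averaged 7.39 in AFT011 and 11.98 in 14F1-1. The remaining top genes were Serpinb2, a plasminogen activator inhibitor (3.15 and 4.77), Adam23, an adhesion protein of the ADAM family without protease activity (3.42 and 2.96), Plxdc2 (4.31 and 2.92), the adaptor gene Bcar3 (2.62 and 2.68) and Creb3l1, a membrane-bound transcription factor of collagen-secreting cells (2.53 and 3.84). The choice of these 14 genes required every AM array to lie above every 2012 array, which held for 2288 of all genes (11.5%).

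**Figure D1:**
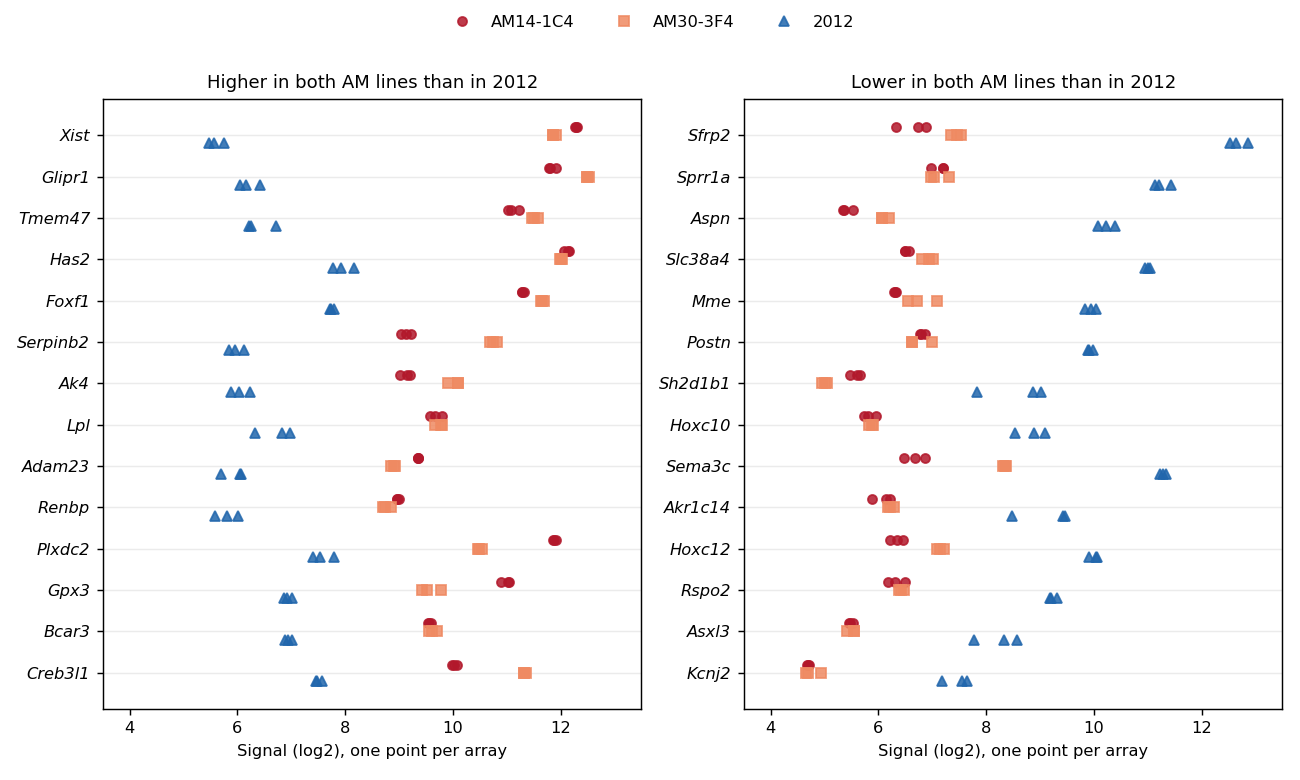
Signal (log2) of the 14 genes with the largest shared rise (left panel) and the 14 with the largest shared fall (right panel), with 1 point per array and 3 arrays per line. The rule of choice put all AM14-1C4 and AM30-3F4 points of each gene on the same side of those of 2012. The 2 AM lines differ from each other by over 1 in Serpinb2, Plxdc2, Gpx3, Creb3l1 and Sema3c.

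Xist had the largest shared rise by the smaller of the 2 differences, with 6.69 ± 0.094 in AM14-1C4 and 6.27 ± 0.094 in AM30-3F4. Xist is the noncoding RNA that silences 1 X chromosome in female cells. It read 12.3, 12.29 and 12.27 in AM14-1C4, 11.85, 11.85 and 11.92 in AM30-3F4, and 5.57, 5.48 and 5.75 in 2012. Its means were 5.56 in AFT011 and 5.74 in 14F1-1, like 2012. The Y-linked genes Eif2s3y (4.07, 4.09 and 4.08), Kdm5d (5.15, 5.09 and 5.24) and Uty (4.42, 4.4 and 4.5) averaged low levels in AM14-1C4, AM30-3F4 and 2012, in that order, and none passed the threshold. Among these 3 lines Xist thus moved with tissue, day and strain. In a second pair of lines, described below, Xist went the other way, averaging 4.84 in the AGM line UG26.1B6 and 11.68 in the FL line AFT024. The part of Xist in the other differences was not tested.

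Sfrp2 had the largest shared fall. It encodes a secreted protein that binds Wnt ligands. It read 6.88, 6.73 and 6.32 in AM14-1C4, 7.34, 7.54 and 7.46 in AM30-3F4, and 12.52, 12.86 and 12.63 in 2012, a difference of -6.03 ± 0.283 and -5.23 ± 0.283 (adjusted p 2.53e-18 and 1.95e-16). Sfrp2 averaged 9.27 in AFT011 and 9.88 in 14F1-1, between the AM lines and 2012. The related gene Sfrp1, another secreted Wnt binder, moved the other way, with 9.88, 9.85 and 10.26 in AM14-1C4, 7.46, 7.55 and 7.54 in AM30-3F4, and 6.42, 6.49 and 6.14 in 2012. Sfrp1 rose by 3.65 in AM14-1C4 and 1.17 in AM30-3F4, so the AM lines shared its direction and differed in its size by 2.48 (adjusted p 6.61e-13).

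Other genes of the shared fall encode matrix and surface proteins of connective tissue. Aspn, a small leucine-rich collagen-binding proteoglycan, read 5.52, 5.34 and 5.36 in AM14-1C4, 6.19, 6.06 and 6.06 in AM30-3F4, and 10.07, 10.39 and 10.22 in 2012. Postn, or periostin, a matrix protein that binds integrins and has been placed in the stem cell niche, read 6.87, 6.79 and 6.78 in AM14-1C4, 6.99, 6.62 and 6.62 in AM30-3F4, and 9.89, 9.99 and 9.91 in 2012. In AFT011 and 14F1-1 both genes were also low, with means of 5.45 and 6.47 for Aspn and 5.77 and 5.94 for Postn. Of the 5 lines of the set, 2012 was thus the one with high Aspn and Postn. Mme, the surface peptidase neprilysin (-3.63 in AM14-1C4 and -3.16 in AM30-3F4), was high in 2012 and in 14F1-1 (mean 10.61).

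Slc38a4, an imprinted amino acid transporter gene, fell by 4.47 in AM14-1C4 and by 4.08 in AM30-3F4, with 6.56, 6.5 and 6.5 in AM14-1C4, 6.93, 7.01 and 6.81 in AM30-3F4, and 11, 10.94 and 11.04 in 2012. Sprr1a, a small proline-rich protein of cornified cells and injured tissue, differed by -4.14 and -4.15. Sema3c, a secreted semaphorin, differed by -4.61 and -2.94, with the AM lines themselves apart by -1.67 (adjusted p 1.88e-09). The other genes of this group were Rspo2, Hoxc10 and Hoxc12, described below, Akr1c14 (-3.05 and -2.90), the potassium channel gene Kcnj2 (-2.76 and -2.70), Asxl3 (-2.74 and -2.73) and Sh2d1b1 (-2.99 and -3.57). The first 2012 array was lowest of its line for Sh2d1b1 (7.83, against 8.87 and 9.01), Akr1c14 (8.48, against 9.43 and 9.46) and Asxl3 (7.78, against 8.33 and 8.58).

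Hox genes, which give cells their position along the body axis, differed between clusters. Of 37 measured Hox genes, 9 were higher in both AM lines (24.3%), 7 were lower in both (18.9%), 1 was opposite and, in AM14-1C4 alone, 4 were higher and 5 lower; over all genes 7.7% were higher in both and 7.55% lower in both. The 7 lower genes all lay in the Hoxc cluster: Hoxc4, Hoxc6, Hoxc8, Hoxc9, Hoxc10, Hoxc11 and Hoxc12. The 9 higher genes were Hoxa2, Hoxa3, Hoxa5, Hoxb2, Hoxb4, Hoxb6, Hoxd4, Hoxd8 and Hoxd9, and none of them is a Hoxc gene. The other 2 measured Hoxc genes, Hoxc5 (-0.62 and 0.10) and Hoxc13 (-2.05 and -0.22), were lower in AM14-1C4 alone. The medians over the list were 0.03 in AM14-1C4 and -0.02 in AM30-3F4, against -0.033 and -0.039 over all genes.

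Hoxc10, a gene of the posterior part of the cluster, read 5.74, 5.81 and 5.95 in AM14-1C4, 5.83, 5.9 and 5.88 in AM30-3F4, and 8.53, 8.89 and 9.09 in 2012. Hoxc12 read 6.22, 6.35 and 6.46 in AM14-1C4, 7.14, 7.09 and 7.22 in AM30-3F4, and 10.06, 10.03 and 9.91 in 2012. Hoxc8 separated the AM lines, with 9.64, 9.52 and 9.67 in AM14-1C4, 6.91, 7.02 and 6.85 in AM30-3F4, and 10.74, 10.85 and 10.87 in 2012. Hoxc8 was nearer to 2012 in AM14-1C4 (-1.21) than in AM30-3F4 (-3.89). On the higher side, Hoxa3 read 8.16, 8.09 and 8.04 in AM14-1C4, 7.57, 7.52 and 7.62 in AM30-3F4, and 6.18, 6.31 and 6.47 in 2012, and Hoxa5 differed by 2.13 and 0.79. Hoxc10 averaged 5.64 in AFT011 and 8.36 in 14F1-1, so the other FL line of the set had low Hoxc10.

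**Figure D2:**
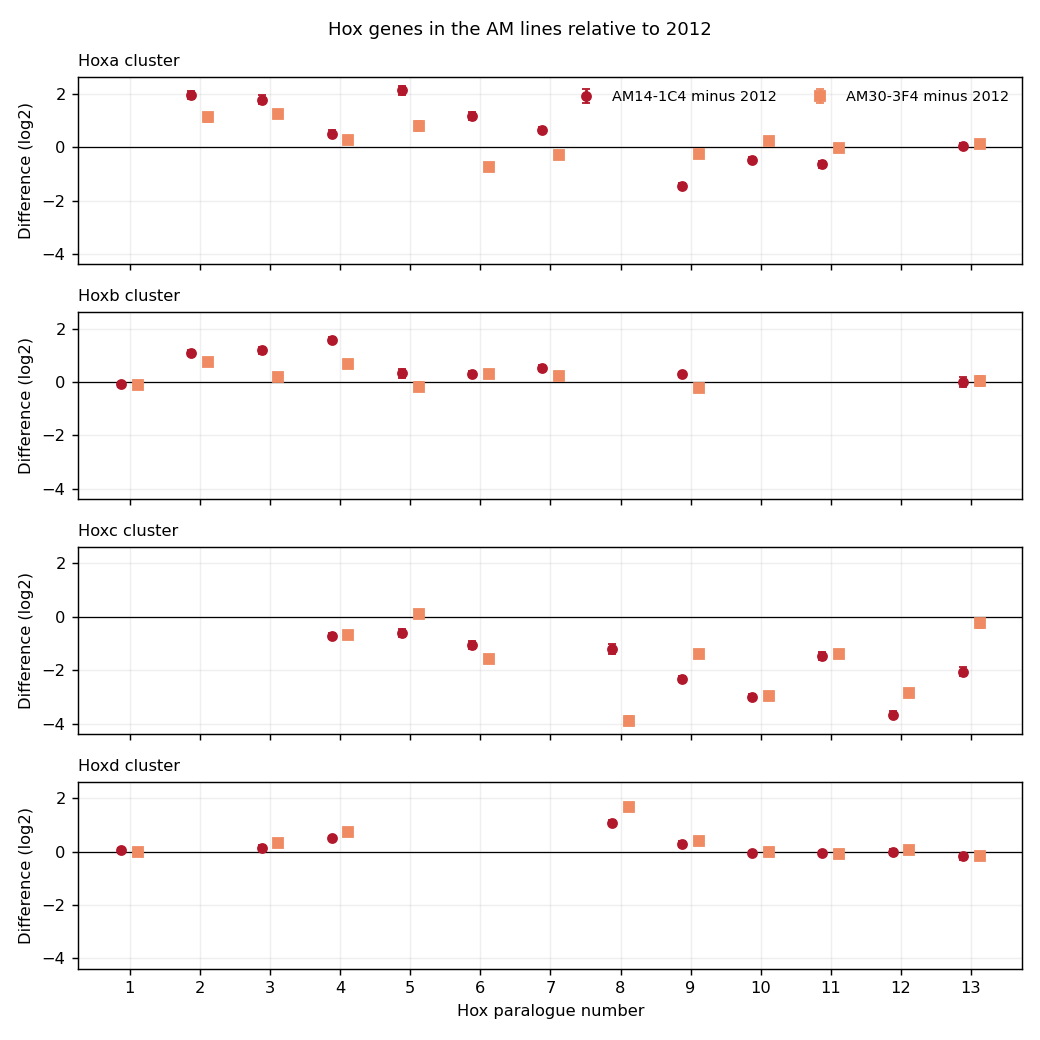
Difference (log2) of AM14-1C4 and AM30-3F4 from 2012 for the measured Hox genes, by cluster (panels) and paralogue number (horizontal axis), with bars for the SE of the fit. Points of Hoxc4 to Hoxc12, apart from Hoxc5, lie below 0 in both AM lines, and points of Hoxa2, Hoxa3 and Hoxa5 lie above 0 in both.

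MicroRNA genes that lie in the Hox clusters were read by probe sets of their own, and they were picked here after their values were seen. These probe sets read RNA of the precursor locus and not the mature microRNA. Of 300 measured microRNA genes, 12 were higher in both AM lines (4%), 7 were lower in both (2.33%) and 2 were opposite (0.667%), each share below that of all genes (7.7%, 7.55% and 3.43%). Mir196a-2 lies between Hoxc10 and Hoxc9 at chr15:102973350-102973434 on the + strand (GRCm38.p6, RefSeq), and Mir196a-1 lies between Hoxb13 and Hoxb9 at chr11:96265164-96265265 on the + strand. Both give the same mature microRNA, a known repressor of Hox messages. It is shown with its seed, bases 2 to 8, in capitals, together with that of Mir615, which lies within Hoxc5 at chr15:103014926-103014990 on the + strand.
mmu-miR-196a-5p: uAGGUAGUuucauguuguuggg
mmu-miR-615-3p: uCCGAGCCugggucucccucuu

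Mir196a-2 read 5.19, 5.08 and 5.01 in AM14-1C4, 4.87, 5.1 and 5.11 in AM30-3F4, and 6.35, 6.63 and 6.4 in 2012, a difference of -1.37 ± 0.114 and -1.43 ± 0.114. Mir196a-1 differed by -1.73 ± 0.149 and -1.41 ± 0.149. Mir615 differed less, by -0.47 and -0.48 (adjusted p 0.00113 and 0.00094). All 3 precursor loci were therefore lower in both AM lines, as were the Hoxc genes on either side of Mir196a-2, while Hoxb9 next to Mir196a-1 was not lower in both (0.29 in AM14-1C4 and -0.21 in AM30-3F4).

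Of 39 measured genes in a list of hematopoietic stem cell niche factors, 5 were higher in both AM lines, 4 were lower in both and 6 were opposite. Another 6 were higher in AM14-1C4 alone, and 3 were higher and 1 was lower in AM30-3F4 alone. Over all genes 7.7% were higher in both, 7.55% lower in both and 3.43% opposite, against 12.8%, 10.3% and 15.4% of this list. The list medians were 0.24 in AM14-1C4 and -0.04 in AM30-3F4. The 5 shared rises were Tnc, Angptl4, Il6, Wnt5a and Sfrp1, and the 4 shared falls were Sfrp2, Postn, Bmp4 and Il7. Tnc, or tenascin-C, a matrix glycoprotein of stem cell niches, read 12.15, 12.11 and 12.06 in AM14-1C4, 12.15, 12.11 and 12.11 in AM30-3F4, and 9.64, 9.77 and 9.86 in 2012. Il6, the cytokine interleukin-6, read 9.06, 8.92 and 9.33 in AM14-1C4, 6.27, 5.76 and 5.61 in AM30-3F4, and 4.5, 4.63 and 4.57 in 2012, so its rise was larger in AM14-1C4 by 3.22 (adjusted p 5.58e-18). The mean of Il6 in AM30-3F4, 5.88, was below the first quartile of genes (5.99). Angptl4, an angiopoietin-like secreted inhibitor of lipoprotein lipase, differed by 1.60 and 1.84, and AM14-1C4 minus AM30-3F4 was -0.24 ± 0.221 (SE).

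Bmp4, a ligand of the bone morphogenetic protein family that is expressed under the ventral wall of the embryonic aorta, was lower in both AM lines. It read 6.68, 6.64 and 6.89 in AM14-1C4, 8.34, 8.28 and 8.16 in AM30-3F4, and 9.89, 10.11 and 9.93 in 2012, and averaged 11.47 in AFT011. Il7, a lymphoid growth factor, differed by -1.03 and -0.74. Kitl, or stem cell factor, the ligand of the receptor Kit on hematopoietic stem cells, was lower in AM30-3F4 alone, with 10.83, 10.65 and 10.64 in AM14-1C4, 8.56, 8.49 and 8.52 in AM30-3F4, and 10.38, 10.43 and 10.51 in 2012. Jag1, a Notch ligand, was higher in AM30-3F4 alone (-0.08 in AM14-1C4 and 2.14 in AM30-3F4), as was the Notch target Hes1 (-0.18 and 1.40). Of 23 measured Notch pathway genes, 2 were higher in AM30-3F4 alone (8.7%, against 4.74% of all genes). In both AM lines 1 was higher and 1 was lower (4.35% each, against 7.7% and 7.55%). Nrarp of this list read 6.24, 6.27 and 6.21 in AM30-3F4 and 6.83, 6.52 and 6.55 in 2012. Hey2 read 7, 7.02 and 6.83 in AM30-3F4 and 6.48, 6.78 and 6.97 in 2012. Igf2, the insulin-like growth factor of embryonic tissues, was higher in AM14-1C4 alone, with 10.99, 10.9 and 10.83 in AM14-1C4, 6.99, 7.13 and 6.98 in AM30-3F4, and 7.53, 6.86 and 7.05 in 2012. Angpt1, a vessel-stabilizing ligand, was also higher in AM14-1C4 alone (2.56 and 0.55).

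In the Wnt pathway 7 of 61 measured genes were higher in both AM lines (11.5%, against 7.7% of all genes) and 11 were lower in both (18%, against 7.55%). Rspo2 and Rspo3, secreted R-spondins that strengthen Wnt signalling through Lgr receptors, were both lower. Rspo2 read 6.49, 6.31 and 6.17 in AM14-1C4, 6.42, 6.38 and 6.47 in AM30-3F4, and 9.18, 9.31 and 9.21 in 2012, and averaged 5.88 in AFT011 and 11.04 in 14F1-1. Rspo3 differed by -1.38 and -1.36. Of the Lgr receptors, Lgr5 was lower (-0.99 and -1.05) and Lgr4 and Lgr6 were higher, Lgr4 by 2.22 and 1.22. Wnt5a, a ligand that acts mainly without beta-catenin, rose by 1.25 in AM14-1C4 and by 3.60 in AM30-3F4, with 8.12, 8.1 and 8.12 in AM14-1C4, 10.53, 10.41 and 10.44 in AM30-3F4, and 6.79, 6.82 and 6.99 in 2012. The pathway's list median was -0.1 in AM14-1C4 and -0.04 in AM30-3F4, near that of all genes.

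Among growth factors of the FGF, PDGF, VEGF and HGF families, 7 of 41 measured genes were higher in both AM lines and 7 were lower in both (17.1% each, against 7.7% and 7.55% of all genes). Hgf, the scatter factor that acts on epithelia through the receptor Met, read 10.36, 10.4 and 10.34 in AM14-1C4, 8.08, 7.81 and 7.73 in AM30-3F4, and 5.82, 5.45 and 5.87 in 2012. Its receptor gene Met was lower in both AM lines (-0.75 and -1.71). Vegfa, the main growth factor of endothelium, rose in both (1.90 ± 0.14 and 1.91 ± 0.14), and Fgf2 (1.5 and 2.22) and Pdgfc (2.15 and 1.33) rose too. Fgf10, a mesenchymal signal to epithelia, was lower in both (-0.52 and -3.83).

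In the TGF-beta and BMP pathway, 3 of 53 measured genes were higher (5.66%, against 7.7% of all genes) and 7 were lower in both AM lines (13.2%, against 7.55%), and 9 were higher in AM30-3F4 alone (17%, against 4.74%). Besides Bmp4, the shared falls held Bmp2 (-0.92 and -0.79) and the BMP-induced inhibitors of differentiation Id1 (-0.69 and -0.63) and Id4 (-1.46 and -1.41). Bmp2 lay below the first quartile of genes (5.99) in every AM array. The shared rises held Bmp1 and the receptor gene Acvr1. Acvr1 read 9.15, 9.08 and 9.2 in AM14-1C4, 9.62, 9.66 and 9.62 in AM30-3F4, and 8.39, 8.52 and 8.54 in 2012. In the IGF system, Igfbp6 (-2.05 and -2.73) and Igf1 (-0.94 and -1.33) were lower in both AM lines and Igfbp4 (3.89 and 0.96) was the only one of 18 measured genes higher in both (5.56%, against 7.7% of all genes).

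Slit2, a secreted guidance ligand of Robo receptors, was lower in both AM lines, and so was the microRNA gene inside it, Mir218-1. Slit2 read 7.09, 7.18 and 7.16 in AM14-1C4, 8.85, 8.79 and 8.75 in AM30-3F4, and 10.76, 10.88 and 10.8 in 2012. Mir218-1 read 5.8, 5.91 and 5.66 in AM14-1C4, 5.9, 6.42 and 6.22 in AM30-3F4, and 8.4, 8.36 and 8.15 in 2012. The differences were -3.67 and -2.01 for Slit2 and -2.51 and -2.12 for Mir218-1. No AM array reached a 2012 array in either, as in 2412 of all genes (12.1%). Over the whole guidance list, 5 of 61 measured genes were higher (8.2%) and 7 were lower (11.5%) in both AM lines, near the 7.7% and 7.55% of all genes. The semaphorin, ephrin and Eph genes lower in both included Sema3c, Efna1 (-0.96 in each line), Efna5 (-1.97 and -0.85) and Epha3 (-1.11 and -1.15), and the netrin receptor gene Unc5c was higher (1.09 and 3.39).

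A second copy, Mir218-2, lies inside the paralogue Slit3, and its values went the way of that host instead. Slit3 read 10.95, 10.94 and 10.89 in AM14-1C4, 7.9, 8.02 and 7.96 in AM30-3F4, and 9.65, 9.66 and 9.6 in 2012. Mir218-2 read 6.99, 7.02 and 7.26 in AM14-1C4, 5.89, 6.03 and 6.05 in AM30-3F4, and 6.61, 6.3 and 6.54 in 2012. Slit3 differed by 1.29 and -1.67 and Mir218-2 by 0.61 and -0.49, opposite in the AM lines for both. The difference of Mir218-2 in AM30-3F4 lost its call without the first 2012 array (-0.428, adjusted p 0.0605) and without the first AM30-3F4 array (-0.442, adjusted p 0.0551), whereas its difference between the AM lines was 1.10 (adjusted p 3.29e-07). Probe sets inside a host gene can also read the host's own unspliced RNA, and that part was not tested.

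The hairpins of the copies are shown because their values differ while the mature strand is the same. Mir218-1 lies at chr5:48223942-48224051 and Mir218-2 at chr11:35616816-35616925, both on the + strand like their hosts (GRCm38.p6, RefSeq). The hairpins are given 5′ to 3′ with the mature strand in capitals. Of the hairpins, 71 of the 110 positions (64.5%) are identical when set side by side without gaps. The mature sequence has its own line with the seed, bases 2 to 8, in capitals.
mmu-miR-218-5p: uUGUGCUUgaucuaaccaugu
Mir218-1: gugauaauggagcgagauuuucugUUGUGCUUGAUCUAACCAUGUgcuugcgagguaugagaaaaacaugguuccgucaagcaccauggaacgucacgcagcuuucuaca
Mir218-2: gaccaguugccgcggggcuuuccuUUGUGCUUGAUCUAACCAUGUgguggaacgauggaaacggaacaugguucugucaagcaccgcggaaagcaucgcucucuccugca

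Imprinted genes of the Dlk1-Meg3 region on chromosome 12 also set the lines apart. Meg3, the maternally expressed long noncoding RNA of the region, read 10.78, 10.86 and 10.89 in AM14-1C4, 8.04, 7.96 and 7.96 in AM30-3F4, and 6.78, 6.25 and 6.4 in 2012. The noncoding RNA gene Rian, next in the region, rose by 2.87 and 0.96. The microRNA genes Mir377 (chr12:109740510-109740577) and Mir382 (chr12:109733771-109733846), both on the + strand between Rtl1 and Dio3 in GRCm38.p6, followed the same order. Mir377 read 8, 8.06 and 8.35 in AM14-1C4, 5.37, 5 and 5.03 in AM30-3F4, and 4.42, 4.34 and 4.39 in 2012, and Mir382 differed by 3.34 and 0.93. Their mature sequences from RefSeq, with the seed in capitals, share no seed with each other or with miR-218-5p and miR-196a-5p.
mmu-miR-377-3p: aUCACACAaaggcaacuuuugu
mmu-miR-382-5p: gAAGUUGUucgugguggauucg

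Dlk1, a paternally expressed gene of the same region, did not follow that order. It read 13.68, 13.71 and 13.66 in AM14-1C4, 8.03, 8.12 and 8.13 in AM30-3F4, and 11.97, 11.87 and 11.82 in 2012. AM14-1C4 was thus above 2012 by 1.80 and AM30-3F4 below it by 3.80, while AFT011 averaged 7.80 and 14F1-1 7.96. Over the imprinted list, 3 of 26 measured genes were higher in both AM lines and 3 were lower (11.5% each, against 7.7% and 7.55% of all genes), and 4 were opposite (15.4%, against 3.43%). Besides Slc38a4, the shared falls held Nnat (-1.32 and -1.41).

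**Figure D3:**
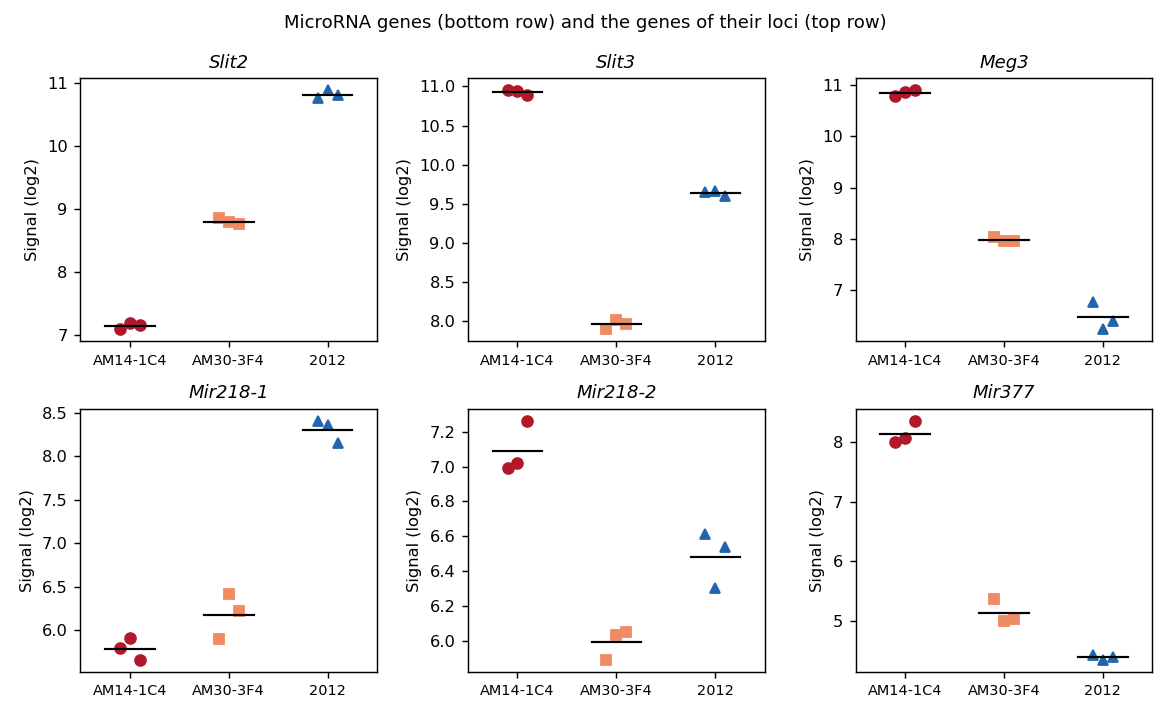
Signal (log2) of Slit2, Slit3 and Meg3 (top row) and of the microRNA genes Mir218-1, Mir218-2 and Mir377 of the same loci (bottom row), with 1 point per array and a bar at the mean of the 3 arrays of a line. In each column the 3 lines stand in the same order in the top and the bottom panel. Vertical axes do not start at 0 and differ between panels.

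Of 68 measured transcription factors of mesoderm, 7 were higher in both AM lines (10.3%, against 7.7% of all genes) and 14 were lower in both (20.6%, against 7.55%), with medians of -0.08 in each line. Besides Foxf1, the rises held Tbx20, a T-box factor of heart and lateral mesoderm (1.68 and 2.61), and Gata6 (0.99 and 1.41). Tbx20 averaged 10.64 in AFT011 and 5.73 in 14F1-1, against 7.32 in AM14-1C4, 8.25 in AM30-3F4 and 5.64 in 2012. The falls held factors of limb, skin and gonad mesenchyme: Tbx15 (-1.64 and -1.58), Shox2 (-1.59 and -1.24), Prrx2 (-1.46 and -1.26), Eya1 (-2.32 and -1.65), Lhx9 (-2.70 and -1.21) and Gata4 (-1.86 and -0.75). Tbx15 read 9.89, 9.82 and 10 in AM14-1C4, 10.01, 9.97 and 9.89 in AM30-3F4, and 11.49, 11.62 and 11.51 in 2012. Of 8 measured markers of the urogenital ridge, 3 were lower in both AM lines and none was higher, against 7.55% and 7.7% of all genes. Osr1 of these markers was opposite (0.61 in AM14-1C4 and -1.86 in AM30-3F4), and Wt1, Nr5a1, Pax2 and Pax8 passed the threshold in neither line.

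Of 67 measured matrix glycoproteins and proteoglycans, 12 were higher and 12 were lower in both AM lines (17.9% each, against 7.7% and 7.55% of all genes). Besides Aspn and Postn, the lower genes included the small leucine-rich proteoglycans Omd (-1.94 and -1.83), Ogn (-1.50 and -2.84) and Dcn (-0.49 and -3.67). Dcn, or decorin, was much lower in AM30-3F4, with means of 9.12 in AM14-1C4, 5.94 in AM30-3F4 and 9.61 in 2012. Of 33 measured collagen genes, 1 was higher (3.03%) and 2 were lower (6.06%) in both AM lines, no more than among all genes (7.7% and 7.55%), and 5 were opposite (15.2%, against 3.43%). Col1a2, a chain of type I collagen, was lower in AM30-3F4 alone, with 11.71, 11.67 and 11.7 in AM14-1C4, 9.95, 9.91 and 9.94 in AM30-3F4, and 11.8, 11.88 and 11.66 in 2012. Its partner chain Col1a1 was lower in AM14-1C4 alone (-0.95 and 0.05).

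Of 40 measured matrix proteases and inhibitors, 10 were higher in both AM lines (25%, against 7.7% of all genes) and 3 were lower in both (7.5%, near the 7.55% of all genes). Mmp2, a gelatinase, averaged 12.89 in AM14-1C4, 11.49 in AM30-3F4 and 10.38 in 2012. Plau, the urokinase plasminogen activator, rose (1.77 and 1.84), and the metalloprotease genes Adam19 (2.17 and 3.26) and Adam12 (1.42 and 1.80) rose as well. Timp1, an inhibitor of such proteases, rose with them (1.07 and 1.23). Among integrins and laminins 7 of 30 measured genes were higher (23.3%) and 6 were lower (20%) in both AM lines. Itga11, a collagen receptor chain, rose by 1.73 and 2.95, Itga5 of the fibronectin receptor by 0.69 and 1.60, and the integrin-like gene Itgbl1 differed by -2.57 and -2.51. Of 26 cadherins and protocadherins, 4 were higher and 4 were lower in both (15.4% each), among them Pcdh7 (4.38 and 2.41), Cdh3 (-2.10 and -2.25) and Cdh13 (-3.64 and -1.99).

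Genes of glycolysis and of the response to low oxygen were higher in both AM lines in 9 of 30 measured (30%, against 7.7% of all genes) and lower in 2 (6.67%, near the 7.55% of all genes), with medians of 0.27 in AM14-1C4 and 0.21 in AM30-3F4. Hk2, the hexokinase that starts glycolysis, read 9.06, 9.12 and 9.28 in AM14-1C4, 9, 9.04 and 8.86 in AM30-3F4, and 7.72, 7.74 and 7.76 in 2012. Egln3, an oxygen-sensing hydroxylase, rose by 0.84 and 1.39, and P4ha1, which hydroxylates collagen, by 0.77 and 0.74. Adm (-1.75 and -0.87) and Ndrg1 (-0.76 and -1.43), which low oxygen also induces, were lower, so members of the list did not all go one way.

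Enzymes of cholesterol and fatty acid synthesis showed no shared rise and a shared fall in 9 of 29 measured genes (31%, against 7.55% of all genes), with another 7 lower in AM30-3F4 alone (24.1%, against 3.7%). The medians were -0.26 in AM14-1C4 and -0.76 in AM30-3F4. Srebf2, the transcription factor that turns on the cholesterol genes, read 10.39, 10.31 and 10.2 in AM14-1C4, 10.22, 10.14 and 10.23 in AM30-3F4, and 11.54, 11.54 and 11.55 in 2012. Its targets Idi1 (-0.88 and -1.47) and Sc5d (-0.72 and -0.84) were lower in both lines. Msmo1 (-0.54 and -1.61) and Mvd (-0.58 and -0.81) were also called in both, but the AM14-1C4 call of both was lost without the first AM14-1C4 array (adjusted p 0.0681 and 0.0729). Msmo1 also lost it without the second 2012 array (0.0644), and Mvd without the second AM14-1C4 array (0.0758) or the first 2012 array (0.101). Cyp51 was lower in AM30-3F4 alone, with 9.71, 9.71 and 9.78 in AM14-1C4, 8.73, 8.57 and 8.58 in AM30-3F4, and 10.05, 10.2 and 10.25 in 2012.

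Of 27 measured genes of lipid signalling, 6 were higher in both AM lines (22.2%, against 7.7% of all genes) and 1 was lower (3.7%, against 7.55%). The higher ones held Plpp3, which degrades lysophosphatidic acid (2.99 and 2.09), Ptgs2, the inducible cyclooxygenase (1.03 and 1.42), and S1pr1, a receptor of sphingosine-1-phosphate (1.90 and 0.94). Another receptor of that lipid, S1pr3, was lower in AM30-3F4 alone (-0.40 and -4.10). Of 31 antioxidant and detoxification genes 6 were higher (19.4%) and 3 were lower (9.68%) in both, the lower ones being the metallothioneins Mt1 (-0.78 and -1.17) and Mt2 (-1.92 and -1.23) and the secreted superoxide dismutase Sod3. In the adipocyte list 4 of 30 measured genes were higher (13.3%) and 1 was lower (3.33%) in both, with Fabp4, a fatty acid binding protein of adipocytes and endothelium, at 2.23 and 1.2 and Ebf1, a factor of early fat and B cells, at 1.55 and 1.53.

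Of 39 measured cell cycle genes, 8 were lower in both AM lines (20.5%, against 7.55% of all genes), 12 were lower in AM14-1C4 alone (30.8%, against 4.77%) and 3 were higher in both (7.69%, near the 7.7% of all genes). Kif11, a mitotic motor, differed by -1.06 and -0.66, and the replication genes Mcm3 (-0.57 and 0.15) and Mcm6 (-0.74 and 0.06) were lower in AM14-1C4 alone. Rrm2, which makes deoxynucleotides, was higher in both (0.57 and 1.24). All 3 lines were harvested at confluence.

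**Figure D4:**
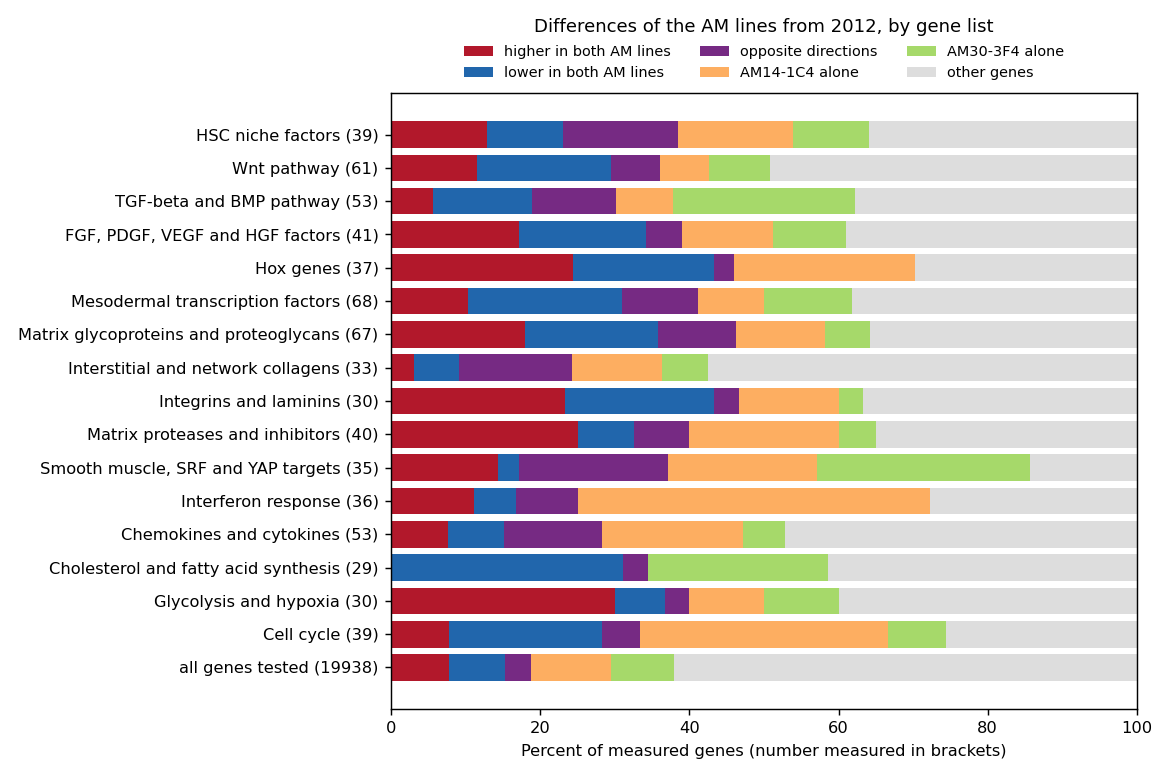
Percent of the measured genes of 16 lists, and of all 19938 genes, that were higher in both AM lines, lower in both, opposite in the AM lines, or of a single AM line against 2012; the number measured stands in brackets. Sterol and fatty acid genes have no shared rise, interferon genes are largely of AM14-1C4 alone, and smooth muscle and SRF genes hold the largest share of opposite genes among these lists.

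Genes higher in AM14-1C4 alone were led by Cpb1, a carboxypeptidase (10.29, 10.28 and 10.32 in AM14-1C4, 5.38, 5.55 and 5.55 in AM30-3F4, and 5.4, 5.4 and 5.51 in 2012). Next came the interferon-induced gene Ifit1, the surface sialomucin gene Cd34, the ETS factor gene Etv1 and the lysozyme gene Lyz2. Cd34, a marker of stem cells, endothelium and some fibroblasts, read 10.95, 10.9 and 10.85 in AM14-1C4, 6.36, 6.55 and 6.58 in AM30-3F4, and 6.5, 6.34 and 6.38 in 2012, and averaged 11.49 in AFT011. Lyz2, which macrophages express strongly, read 9.25, 9.54 and 9.3 in AM14-1C4, 5.31, 5.31 and 5.48 in AM30-3F4, and 5.41, 5.17 and 5.31 in 2012. The mean level of the 5 measured macrophage markers ran from 7.33 to 7.43 over the AM14-1C4 arrays, 6.3 to 6.36 over the AM30-3F4 arrays and 6.06 to 6.24 over the 2012 arrays. Csf1r was also higher in AM14-1C4 alone (1.02 and -0.04) and Cd68 in both AM lines (1.10 and 1.14), whereas Adgre1, a defining macrophage surface antigen, averaged 5.09 in AM14-1C4, 5.10 in AM30-3F4 and 5.10 in 2012, and C1qa averaged 6.38, 6.19 and 6.34.

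Of 36 measured interferon response genes, 17 were higher in AM14-1C4 alone (47.2%, against 5.95% of all genes), 4 were higher and 2 lower in both AM lines (11.1% and 5.56%, against 7.7% and 7.55%) and 3 were opposite (8.33%). The medians were 1.12 in AM14-1C4 and 0.02 in AM30-3F4. Ifit1, which binds foreign RNA caps, read 10.55, 10.51 and 10.46 in AM14-1C4, 5.68, 5.9 and 5.54 in AM30-3F4, and 6.33, 6.38 and 6.43 in 2012. Ddx60, a helicase of the antiviral response, read 8.06, 8.33 and 8.09 in AM14-1C4, 4.98, 4.92 and 4.99 in AM30-3F4, and 5.13, 4.8 and 4.9 in 2012. Rtp4 (2.86 and 0.11) and Irf9, a subunit of the interferon-activated factor, went the same way. Ifi202b (5.46 and 2.03) and Ifi203 (4.16 and 1.10), neighbours in a family that varies between mouse strains, were higher in both AM lines, and Ifit2 was lower in both (-1.53 and -1.52). Of the 5 macrophage markers given above, Lyz2 and Csf1r were, like these 17 genes, higher in AM14-1C4 alone, Cd68 was higher in both AM lines, and Adgre1 and C1qa did not pass the threshold in either. The part of such cells in the interferon values was not tested.

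The promoters of Ifit1 and Ddx60 are printed because members of this list moved together. Each runs from 250 bases before to 50 after the gene's start in RefSeq (GRCm38.p6). Ifit1 lies at chr19:34640639-34640938 and Ddx60 at chr8:61927837-61928136, both on the + strand. Capitals mark the interferon response motif, written as GAAA, any 2 bases and GAAA, searched on both strands. Each promoter held 2 matches, on the opposite strand at -104 and -85 in Ifit1 and on the gene's strand at -53 and -19 in Ddx60. The motif was found in 14 of 27 promoters of measured list members (51.9%), in 6 of 11 of those higher in AM14-1C4 alone (54.5%) and in 1079 of 27025 promoters of all genes (3.99%). A match describes the letters in this window only.
Ifit1: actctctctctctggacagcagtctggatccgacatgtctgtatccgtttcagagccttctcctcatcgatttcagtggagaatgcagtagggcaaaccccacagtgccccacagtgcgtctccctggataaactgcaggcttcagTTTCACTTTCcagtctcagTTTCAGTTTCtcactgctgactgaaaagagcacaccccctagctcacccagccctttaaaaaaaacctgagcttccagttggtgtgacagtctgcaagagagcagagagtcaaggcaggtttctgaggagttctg
Ddx60: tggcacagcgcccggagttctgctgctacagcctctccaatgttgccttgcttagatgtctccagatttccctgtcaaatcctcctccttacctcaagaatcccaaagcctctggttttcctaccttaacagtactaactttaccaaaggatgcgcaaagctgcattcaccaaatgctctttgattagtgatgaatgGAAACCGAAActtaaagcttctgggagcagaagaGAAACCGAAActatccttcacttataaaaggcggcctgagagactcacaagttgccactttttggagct

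**Figure D5:**
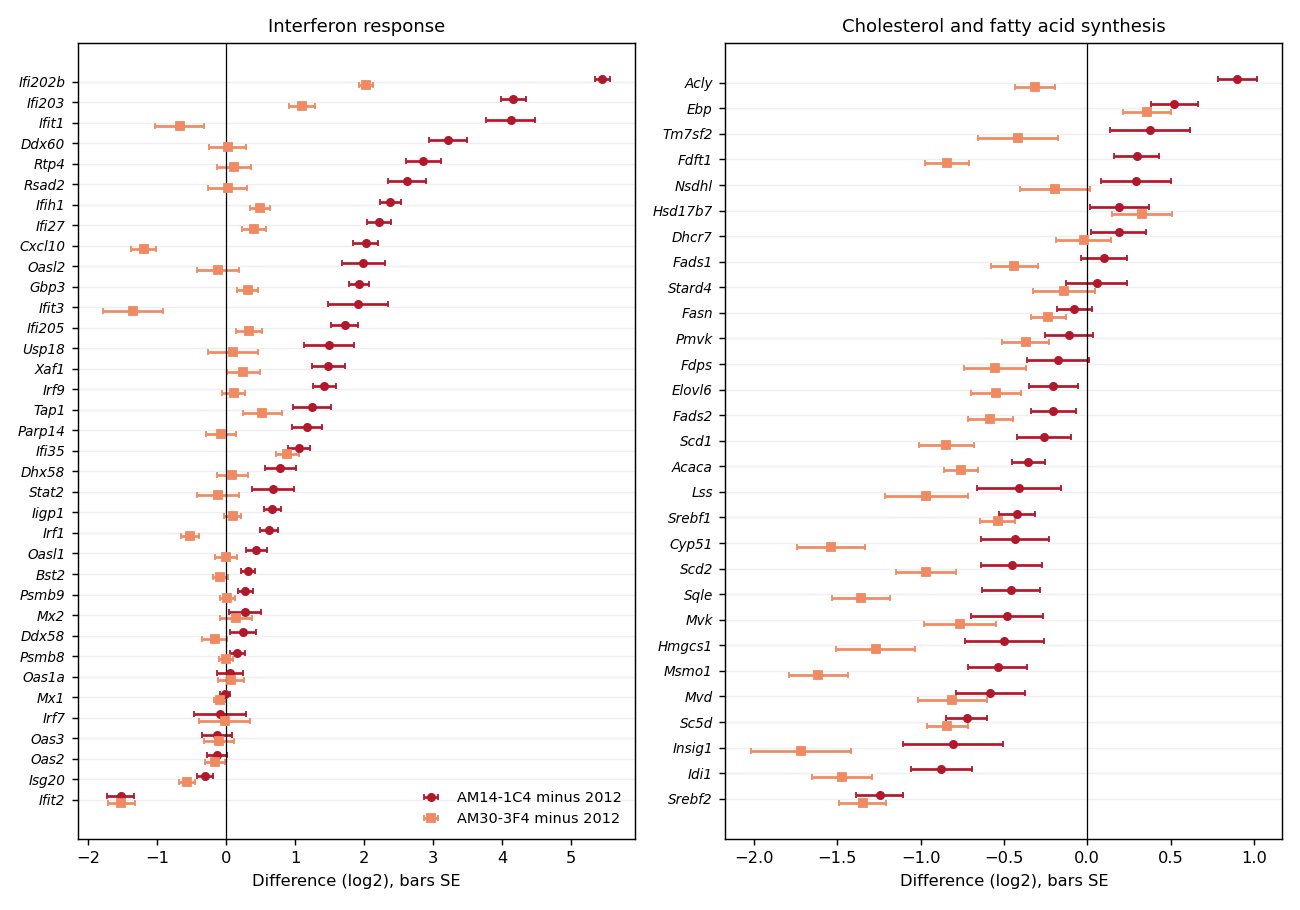
Difference (log2) of AM14-1C4 and AM30-3F4 from 2012 for every measured gene of the interferon list (left) and of cholesterol and fatty acid synthesis (right), ordered by the AM14-1C4 difference, with bars for the SE. On the left most AM14-1C4 points lie well right of 0 while AM30-3F4 points gather near 0, and on the right AM30-3F4 points lie left of the AM14-1C4 points for most genes.

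Genes lower in AM14-1C4 alone were led by Fhl1, a LIM protein of muscle and stroma, and Smim20, F11r, Pcolce2 and Plpp2. Fhl1 read 8.08, 7.98 and 9.51 in AM14-1C4, 12.6, 12.58 and 12.51 in AM30-3F4, and 11.97, 12.04 and 12.04 in 2012, with the third AM14-1C4 array above its other 2. Without that array the difference from 2012 was -3.98 instead of -3.49. Pcolce2, an enhancer of collagen processing, read 6.2, 6.65 and 6.99 in AM14-1C4, 10.13, 10.34 and 9.96 in AM30-3F4, and 10.48, 10.35 and 10.26 in 2012. F11r, a junctional adhesion molecule, differed by -3.32 in AM14-1C4 and by 0.35 in AM30-3F4.

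Genes higher in AM30-3F4 alone were led by Fabp7, P2ry10b, Eng, Lrrc32 and Krt7. Eng, or endoglin, a TGF-beta co-receptor of endothelium and some stromal cells, read 7.41, 7.4 and 7.88 in AM14-1C4, 11.34, 11.31 and 11.29 in AM30-3F4, and 7.38, 7.15 and 7.3 in 2012. Fabp7, a brain-type fatty acid binding protein, read 6.15, 6.47 and 8.45 in AM14-1C4, 12.38, 12.16 and 12.21 in AM30-3F4, and 6.92, 6.96 and 7.13 in 2012. The third AM14-1C4 array was again high, and without it Fabp7 differed between AM14-1C4 and AM30-3F4 by -5.94 instead of -5.22. Lrrc32 anchors latent TGF-beta at the cell surface (0.15 and 3.82), and Krt7 is a keratin of simple epithelia and mesothelium (0.27 and 3.74). Of genes of contractile cells, 9 of 35 measured smooth muscle, SRF and YAP target genes were higher in AM30-3F4 alone (25.7%, against 4.74% of all genes), 5 were higher in both AM lines (14.3%, against 7.7%) and 7 were opposite (20%, against 3.43%). Of the same 35 genes, 1 was lower in both AM lines (2.86%, against 7.55%) and 5 were lower in AM14-1C4 alone (14.3%, against 4.77%). Actg2, an actin of smooth muscle, rose by 1.15 in AM14-1C4 and 4.49 in AM30-3F4, and Ccn2, or connective tissue growth factor, rose in AM30-3F4 alone (-0.35 and 2.10). Ankrd1 of this list was lower, with 10.44, 10.4 and 10.37 in AM14-1C4, 10.89, 10.72 and 10.89 in AM30-3F4, and 11.54, 11.58 and 11.71 in 2012.

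Genes lower in AM30-3F4 alone were led by Nrn1, Crabp1, Klra6, S1pr3 and AW551984. Nrn1, a membrane-anchored neurite factor, read 12.24, 12.33 and 12.19 in AM14-1C4, 6.83, 6.58 and 6.8 in AM30-3F4, and 11.95, 11.94 and 12.05 in 2012. Crabp1, which binds retinoic acid in the cytoplasm, read 12.41, 12.4 and 12.49 in AM14-1C4, 7.97, 8.06 and 8.03 in AM30-3F4, and 12.34, 12.2 and 12.16 in 2012. In both genes the AM30-3F4 arrays lay far below those of AM14-1C4 and 2012. Other retinoid genes differed in AM30-3F4 as well: Aldh1a1, which makes retinoic acid, was higher in AM30-3F4 alone (0.24 and 2.47), and Rxra was lower there (-0.05 and -0.82).

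Opposite genes included several known niche and matrix factors, and those named here were chosen after their values were seen. Besides Dlk1, the heparin-binding factor pleiotrophin (Ptn) read 10.92, 11.12 and 11.13 in AM14-1C4, 7, 7 and 6.78 in AM30-3F4, and 8.78, 8.88 and 8.68 in 2012. Vcam1, the adhesion molecule that holds hematopoietic cells through integrin VLA-4, read 11.37, 11.28 and 11.27 in AM14-1C4, 7.91, 7.78 and 7.62 in AM30-3F4, and 10.76, 10.7 and 10.7 in 2012. The BMP antagonist gene Grem1 differed by 3.14 and -0.83, the latent TGF-beta binding protein gene Ltbp2 by 2.34 and -1.28, Igfbp3 by 1.74 and -0.87, and the chemokine gene Ccl5 by 3.57 and -0.99. The reverse order, lower in AM14-1C4 and higher in AM30-3F4, held for the contractile genes Myl9 (-2.19 and 1.76), Tagln (-0.82 and 2.83) and Cnn1 (-0.39 and 2.61), for Col5a2 (-3.13 and 0.41) and for Fgf7, a mesenchymal growth factor for epithelia (-3.96 and 0.47). Of these, the smaller difference of 3 genes was not firm: Fgf7 in AM30-3F4 had an adjusted p of 0.0536 to 0.102 without any 1 of the AM30-3F4 or 2012 arrays, Cnn1 in AM14-1C4 one of 0.259 without the first AM14-1C4 array, 0.0952 without the first 2012 array and 0.0821 without the third, and Tagln in AM14-1C4 one of 0.101 without the first or the second AM14-1C4 array.

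A pair of lines with the same labelled contrast, and no array in common with the 9 above, was available in another normalization set. UG26.1B6 is a supportive AGM line of embryonic day 11 from (CBAxC57BL/10)F1 embryos, and AFT024 is a supportive FL line of embryonic day 14.5 from C57BL/6, each with 3 arrays. UG26.1B6 was higher than AFT024 in 2947 genes (14.8%) and lower in 3047 (15.3%). Of the 1535 genes higher in both AM lines, 450 were higher in UG26.1B6 than in AFT024 (29.3%) and 341 were lower (22.2%). Of the 1506 genes lower in both AM lines, 512 were lower in UG26.1B6 (34%) and 294 were higher (19.5%). Both directions were more frequent than among all genes, and the direction of the AM lines was the commoner. Among genes at least 2-fold apart, 85 of 189 higher genes were higher in UG26.1B6 (45%) and 48 were lower (25.4%), and 79 of 162 lower genes were lower there (48.8%) and 34 were higher (21%).

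The genes named above divided in this second pair. Of the 14 top higher genes 5 were higher in UG26.1B6 than in AFT024, 7 were lower and 2 did not pass. Of the 14 top lower genes 5 were lower, 4 were higher and 5 did not pass. Has2 (1.70, adjusted p 3.5e-05), Ak4 (3.95), Tnc (2.10), Sfrp1 (2.92), Wnt5a (2.11) and Hoxa3 (1.77) were higher in UG26.1B6 as in the AM lines, and Sfrp2 (-2.45), Slc38a4 (-4.06), Sprr1a (-4.99), Slit2 (-2.45), Mir218-1 (-1.95) and Hoxc8 (-3.28) were lower. Glipr1 (-2.37), Lpl (-1.81), Renbp (-4.44) and Xist (-6.85) went the other way on the higher side, and Postn (3.38), Mme (4.97), Hoxc10 (1.89), Mir196a-1 (2.18), Rspo2 (0.96) and Lhx9 (2.27) on the lower side. Xist averaged 4.84 in UG26.1B6 and 11.68 in AFT024, so here the FL line carried the high level. Foxf1 was lower in UG26.1B6 (-0.29, adjusted p 0.0113), against differences of 3.54 and 3.91 in the AM lines. Its level was low in both lines of this pair, with means of 5.86 in UG26.1B6 and 6.15 in AFT024. Array medians of that set lay between 6.82 and 6.95. Tmem47, also counted as lower in UG26.1B6, was low in both too, with means of 5.96 and 6.48. Of 36 measured interferon genes, 25 were lower in UG26.1B6 than in AFT024 and 2 were higher, against 15.3% and 14.8% of all genes. Sterol and fatty acid genes passed in 4 of 29, 2 in each direction, against 30.1% of all genes passing.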

How the data were processed

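Expression was read on Affymetrix mouse gene 1.0 ST arrays (labels' protocols). The authors deposited log2 values, 1 for each probe set; the submitters' processing notes name RMA and Partek, and their versions are not given in the sources used here. All arrays fall into 4 normalization sets (18, 6, 12 and 15 arrays), and levels were compared only within a set. Of 35556 probe sets, 21789 named 1 gene symbol (GEO platform annotation), 1621 named several and 12146 none; with several per gene (999 genes) the one with the highest mean was used, leaving 19938 genes with no filter on signal. The main test was 1 limma 3.58.1 fit in R 4.3.3 to the 39 arrays of confluent cultures with a mean for each of 13 lines, read as contrasts of lines of the same set. P-values are two-sided, with Benjamini-Hochberg adjustment across the 19938 genes and a threshold of 0.05. The SE comes from the spread pooled over the 39 arrays, so it can differ from the spread of the 3 arrays of a line. The fit was tested on simulated data. The 3 arrays per line limit the precision. Figures were drawn with matplotlib 3.10.9.

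The members, gene lists and alternatives were chosen with earlier results of these data known. Named were the 14 genes per direction with the largest smaller difference among shared genes without overlap of arrays, 5 per direction of each single AM line, up to 6 shared and up to 3 single-line members of each list with the largest differences, and cell type markers; clone-like and LOC symbols, small RNA genes (also Mir), Olfr and Vmn genes were left out of this rule. Any other gene named was chosen after its values were seen. Replicate numbers did not pair the arrays: correlations of same-numbered deviations from the line means ran from -0.384 to 0.219.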

Additional observations from a re-analysis of the deposited data

Results flagged for a closer look

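In 684 genes the AM lines stood on opposite sides of 2012, and for the genes of a single line the difference between the AM lines itself passed the threshold (limma). Among the opposite genes named above, AM14-1C4 was higher than AM30-3F4 by 5.59 in Dlk1, 4.55 in Ccl5, 4.13 in Ptn, 3.97 in Grem1, 3.62 in Ltbp2, 3.53 in Vcam1, 2.97 in Slit3, 2.61 in Igfbp3 and 1.10 in Mir218-2. It was lower there, with differences of -4.43 in Fgf7, -3.95 in Myl9, -3.65 in Tagln, -3.54 in Col5a2 and -3 in Cnn1.

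Among genes of AM14-1C4 alone, AM14-1C4 minus AM30-3F4 was 4.81 in Cpb1, 4.80 in Ifit1, 4.40 in Cd34, 4.11 in Etv1 and 4.00 in Lyz2, and -4.04 in Fhl1, -3.68 in Smim20, -3.67 in F11r, -3.53 in Pcolce2 and -3.53 in Plpp2. Among genes of AM30-3F4 alone, the same difference was -5.22 in Fabp7, -5.07 in P2ry10b, -3.74 in Eng, -3.67 in Lrrc32 and -3.47 in Krt7, and 5.52 in Nrn1, 4.41 in Crabp1, 3.70 in Klra6, 3.69 in S1pr3 and 3.26 in AW551984.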

How the results depend on the processing

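No difference or count reversed under any alternative run. The count of opposite genes, 684, moved to 1223 in a fit to the 15 arrays of the set, 1111 with the 9 arrays alone and 1224 after cyclic loess; the counts shared by both AM lines stayed within 1.5 times, at 2016 higher and 2043 lower, 1928 and 1919, and 2100 and 1974. Testing for a difference above 1 (limma's treat) left 545 genes in AM14-1C4 and 356 in AM30-3F4 against 2012, 537 between the AM lines, 128 shared by both (67 higher, 61 lower), 2 opposite, 351 of a single line (232 of AM14-1C4, 119 of AM30-3F4) and 448 between UG26.1B6 and AFT024, with 56 and 76 of the shared higher and lower genes called there. Leaving out 1 array at a time gave 5834 to 6431 genes in AM14-1C4, 5183 to 5929 in AM30-3F4, 5665 to 6407 between the AM lines, 2699 to 2820 shared (1308 to 1465 higher, 1255 to 1483 lower), 534 to 639 opposite and 3521 to 3876 of a single line. With the replicate number as a block in the 9 arrays 1820 genes were higher and 1762 lower in both AM lines; the numbers do not pair the arrays. The causes of these moves were not tested, apart from the smaller number of arrays or stricter test in their construction.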
